A study of Mus musculus with 4 samples.

Results

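The loci of *Gzma*, *Gzmb*, *Gzmc*, *Gzmf*, *Gzmk*, *Prf1*, and *Klrg1* were examined in chromatin immunoprecipitation-sequencing (ChIP-Seq) peak lists for JunB, BATF, and IRF4 from regulatory T (Treg) cells. The genes were chosen by name and their peaks by position alone, namely every listed peak whose centre lay within 100 kb of an annotated transcription start site (TSS) of any of the 7 genes in the mm9 mouse genome. This gave 109 of the 103355 listed peaks, comprising 24 of 29659 JunB, 16 of 13570 BATF, and 32 of 31093 IRF4 peaks from *Junb*-sufficient cells and 37 of 29033 IRF4 peaks from *Junb*-deficient cells. Because neighbouring genes share peaks, the peaks were assigned to 4 loci and each was counted once, with 52 peaks at *Gzma*-*Gzmk* on chromosome 13, 34 at the *Gzmb* cluster (*Gzmb*, *Gzmc*, and *Gzmf*) on chromosome 14, 4 at *Prf1* on chromosome 10, and 19 at *Klrg1* on chromosome 6.

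Granzymes are serine proteases stored in cytotoxic granules, and perforin, encoded by *Prf1*, forms the pores through which they reach the target cell. Granzyme B cleaves after aspartate and can activate caspases, granzymes A and K are trypsin-like, and *Gzmc* and *Gzmf* belong to the group of rodent granzyme genes next to *Gzmb*. KLRG1 is an inhibitory lectin-like receptor that binds cadherins and marks terminally differentiated T cells and a part of effector Treg cells. JunB is an AP-1 subunit that pairs with BATF, and IRF4, which binds DNA weakly alone, joins such pairs at composite AP-1 and IRF elements (AICE).

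The cells were splenic CD4+CD25+ T cells of C57BL/6 mice, cultured for 60 h with IL-2 and antibodies against CD3 and CD28. The *Junb*-sufficient cells gave 1 library each for JunB, BATF, and IRF4, and the *Junb*-deficient cells gave 1, for IRF4. The sample labels give the genotypes as Foxp3cre JUNB+/+ and Foxp3cre JUNBFl/Fl, whereas the study's description of the experiment gives *Cd4*Cre *Junb* fl/fl mice and floxed controls without Cre, so which Cre was carried, and whether the control mice carried it, was not settled here. *Cd4*Cre deletes in all T cells that pass through a CD4-expressing stage, *Foxp3*Cre mainly in Treg cells, and the CD4+CD25+ gate can also hold activated conventional T cells; peak lists carry no marker expression against which the cell type could be checked. For the *Junb*-sufficient cells, the antibody field of the labels names BATF where the sample title names IRF4 and the reverse. The titles were followed, and the study's own list of its data pairs these samples with BATF and IRF4 as the titles do. The study states that its ChIP-Seq experiments were repeated, and 1 library for each condition was analysed here. With 1 library for each condition, no difference between genotypes or factors could be tested here. Intervals are exact binomial (Clopper-Pearson) 95% intervals over peaks and cover counting error only. By ChIP followed by PCR, the study itself reports reduced IRF4 binding in *Junb*-deficient cells at sites near *Gzmb* and other genes. Which of the *Gzmb* sites below that covers was not known.

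The libraries held 21127029 to 27399986 tags, with the fewest in *Junb*-deficient IRF4 (23914441 in *Junb*-sufficient IRF4). After the caller had limited tags to 1 per position, their density was 8.65 tags per kb of genome in *Junb*-sufficient and 8.96 in *Junb*-deficient IRF4, so that the latter was not the shallower library by this measure. The share of tags within peaks was 12.76% and 11.15%, and its part in the differences between the lists was not tested. Peaks were called at 150 bp for JunB and at 605 to 612 bp in the other libraries, and a JunB peak needed 10 tags against 19 in the others. The deposited score was the same for every peak, but the order of each list carried information. Of the IRF4 peaks in the first 10% of the *Junb*-sufficient list, 5.05% had no overlapping *Junb*-deficient IRF4 peak, whereas of those in the last 10%, 67.9% had none. The place of a peak is therefore given as a percentage of its list, where a low value means near the top, and peaks near the top are called strong. Each list repeats the order of the chromosomes within blocks of peaks, so that a place is known only to within its block, which for the peaks described here spanned at most 7.29 percentage points. The plot of peaks along the 4 loci shows where all 109 lay.

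**Figure D1:**
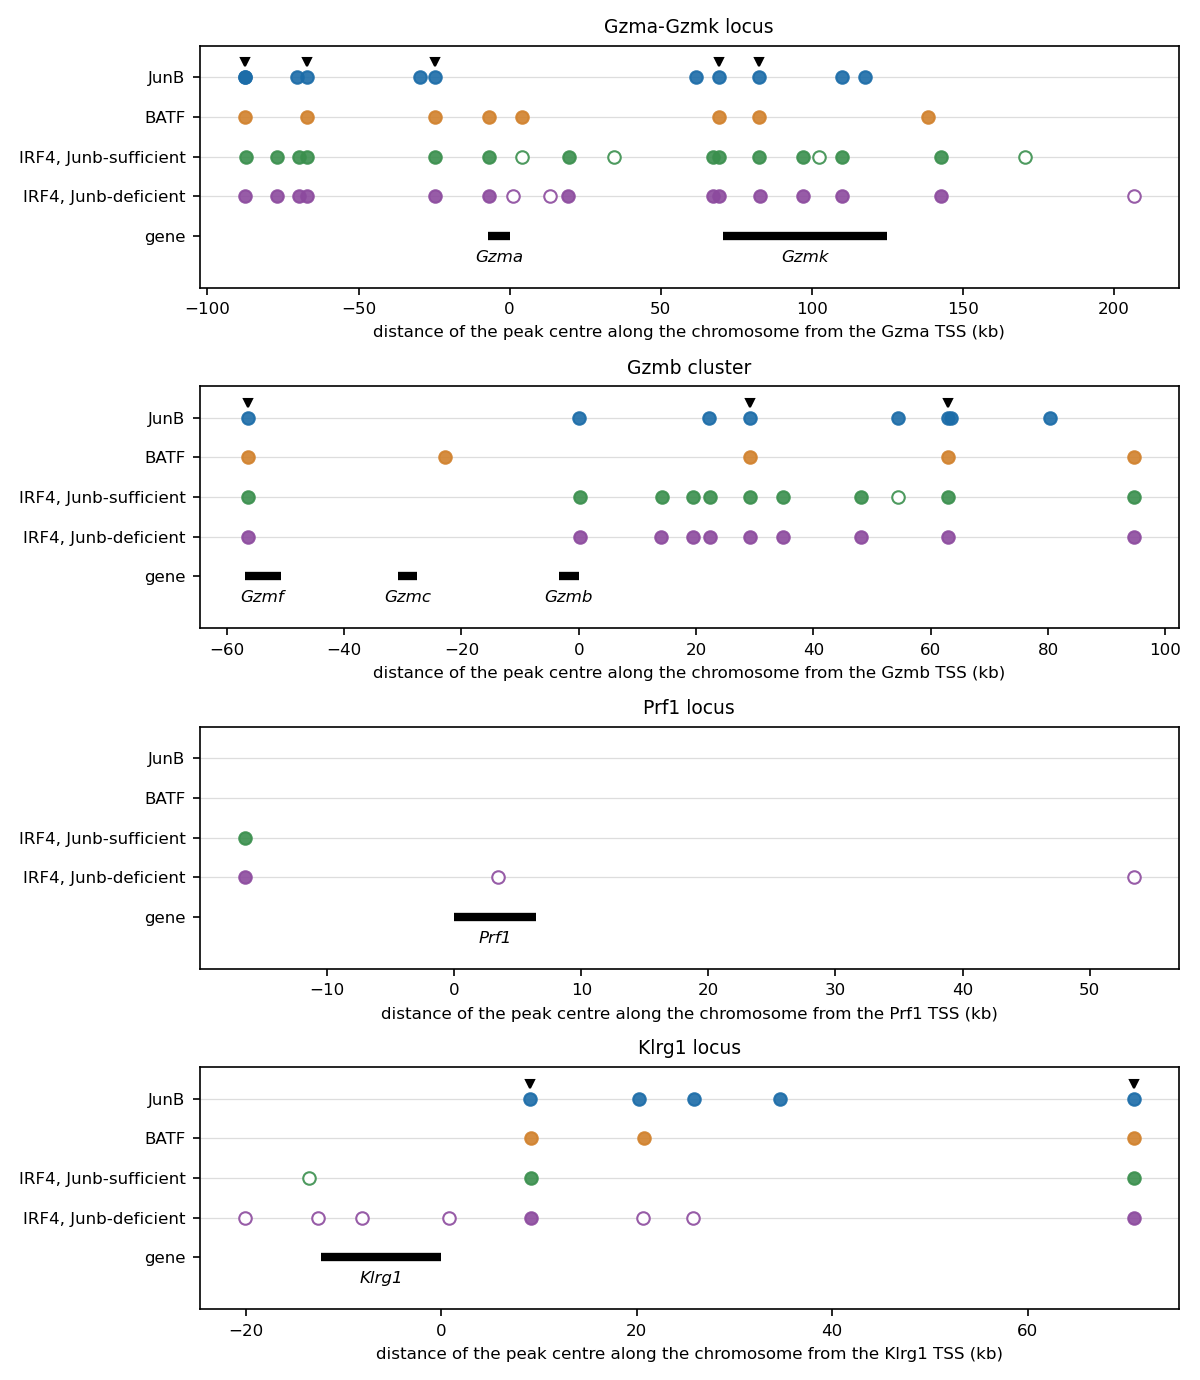
Peaks at the 4 loci, with the distance of each peak centre along the chromosome from the named TSS on the x axis (kb) and the 4 libraries in rows. Open circles are IRF4 peaks with no overlapping peak in the other genotype, black triangles mark the 10 JunB peaks with both a BATF and an IRF4 peak, and black bars are genes; *Klrg1* has 6 open circles in the *Junb*-deficient row and the *Gzmb* cluster has 0.

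The sequences on which the results below turn are shown here as read from the mm9 reference, 5′ to 3′. Capitals mark matches on either strand to the AP-1 letters TGAGTCA, to AICE, searched as GAAATGANTCA, GAAATGANTAA, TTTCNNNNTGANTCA, or TTTCNNNNTGANTAA, which can overlap an AP-1 match, or to the cyclic AMP response element (CRE) TGACGTCA. The first set holds the 3 JunB peaks of the *Gzmb* cluster with an AICE match within 100 bp of the centre, which were all the JunB peaks with such a match among the 24.
*Gzmb*, 62.9 kb upstream, chr14:56943969-56944119, plus strand: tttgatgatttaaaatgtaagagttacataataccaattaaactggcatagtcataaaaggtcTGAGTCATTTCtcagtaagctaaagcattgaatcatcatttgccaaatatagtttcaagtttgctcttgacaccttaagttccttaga
*Gzmb*, 63.4 kb upstream, chr14:56944426-56944576, plus strand: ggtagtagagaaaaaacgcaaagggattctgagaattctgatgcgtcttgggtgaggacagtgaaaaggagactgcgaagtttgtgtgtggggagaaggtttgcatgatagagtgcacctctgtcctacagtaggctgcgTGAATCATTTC
*Gzmb*, 54.5 kb upstream, chr14:56935498-56935648, plus strand: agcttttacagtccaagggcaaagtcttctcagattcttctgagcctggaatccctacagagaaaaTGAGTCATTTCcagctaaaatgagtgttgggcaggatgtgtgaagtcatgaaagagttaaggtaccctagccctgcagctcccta

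The second set compares the JunB peak at the *Gzmb* promoter with the same window, 26 to 176 bp before the TSS, at *Gzmc* and *Gzmf*, where no JunB peak was listed; this set was chosen after the peaks were seen. All 3 are given in the direction of transcription.
*Gzmb* promoter JunB peak, chr14:56881123-56881273, minus strand: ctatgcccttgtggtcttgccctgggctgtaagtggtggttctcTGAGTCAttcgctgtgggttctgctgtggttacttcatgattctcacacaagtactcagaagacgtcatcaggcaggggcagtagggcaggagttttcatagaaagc
*Gzmc* promoter window, chr14:56853519-56853669, minus strand: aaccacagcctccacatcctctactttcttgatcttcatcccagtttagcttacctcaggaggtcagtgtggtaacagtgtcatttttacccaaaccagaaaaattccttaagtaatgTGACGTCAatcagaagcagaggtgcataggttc
*Gzmf* promoter window, chr14:56830270-56830420, minus strand: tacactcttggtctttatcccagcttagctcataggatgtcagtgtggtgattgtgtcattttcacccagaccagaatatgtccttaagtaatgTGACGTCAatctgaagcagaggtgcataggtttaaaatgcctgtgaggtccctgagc

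The third set gives, for each locus that had any, the JunB peak with BATF and IRF4 nearest to a TSS of the 7 genes, and the middle of an IRF4 peak upstream of *Gzma* that held an AICE match but no JunB peak.
*Gzmk* intron, chr13:113973770-113973920, plus strand: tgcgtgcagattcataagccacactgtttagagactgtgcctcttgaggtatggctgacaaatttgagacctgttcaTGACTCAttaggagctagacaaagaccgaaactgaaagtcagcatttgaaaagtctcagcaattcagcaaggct
*Gzmf* intron, chr14:56824619-56824769, plus strand: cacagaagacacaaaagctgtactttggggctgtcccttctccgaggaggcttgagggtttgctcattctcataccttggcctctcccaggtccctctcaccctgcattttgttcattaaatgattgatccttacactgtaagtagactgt
*Klrg1*, 9.12 kb upstream, chr6:122241943-122242093, plus strand: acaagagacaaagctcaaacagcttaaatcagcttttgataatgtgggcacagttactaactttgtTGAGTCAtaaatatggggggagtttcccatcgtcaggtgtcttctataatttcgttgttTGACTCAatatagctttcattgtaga
*Gzma*, 3.98 kb upstream, chr13:113895096-113895246, plus strand: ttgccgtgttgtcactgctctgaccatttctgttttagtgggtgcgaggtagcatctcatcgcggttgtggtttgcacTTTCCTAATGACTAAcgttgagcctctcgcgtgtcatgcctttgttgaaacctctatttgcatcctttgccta

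The search covered 100 bp on either side of each peak centre. Of the 24 JunB peaks, 8 held an AP-1 match (33.3%, 15.6 to 55.3%), against 27.0% of all JunB peaks within 100 kb of a protein-coding TSS. AICE matches were found in 3 (12.5%, 2.66 to 32.4%), against 3.96%, an interval that includes the background. These letters are a description of the windows and do not show which protein lay there.

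At *Gzmb* (chr14:56877693-56881097, minus strand), the site 62.9 kb upstream was near the top of all 3 *Junb*-sufficient lists and near the bottom of the *Junb*-deficient one. It stood at place 1771 of the JunB list (5.97%), at place 654 of the BATF list (4.82%), and at place 1443 of the *Junb*-sufficient IRF4 list (4.64%). In *Junb*-deficient cells the overlapping IRF4 peak (chr14:56943732-56944336) was listed at place 27237 (93.8%, block 92.1 to 94.3%). It was therefore still called a peak, but 89.2 percentage points lower. Of the 20218 IRF4 peaks that overlapped a peak in the other genotype, 3 were listed lower by as much, including this one. Against the BATF list, which the exchanged antibody labels would make the IRF4 list, the distance was 89.0 points. This site holds the first of the sequences above, with the letters TGAGTCATTTC, an AP-1 and an AICE match on overlapping bases, 7 bp from the centre of the JunB peak, and a second JunB peak with an AICE match 70 bp from its own centre was listed 457 bp away, at place 14536 (49.0%), with no BATF or IRF4 peak on it.

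The site 54.5 kb upstream of *Gzmb* carried the same letters, TGAGTCATTTC, 4 bp from the centre of its JunB peak. JunB was listed at place 5551 (18.7%) and *Junb*-sufficient IRF4 (chr14:56935271-56935883) at place 17574 (56.5%). No BATF peak and no *Junb*-deficient IRF4 peak overlapped it, and the nearest *Junb*-deficient IRF4 peak was centred 6.35 kb away. Among the 14 IRF4 peaks at JunB peaks in the 4 loci, this was the only one without a *Junb*-deficient counterpart.

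At the *Gzmb* promoter, JunB was listed at place 12213 (41.2%), centred 101 bp upstream of the TSS, over the promoter sequence shown above with its AP-1 match. The *Junb*-sufficient IRF4 peak (chr14:56880914-56881526), which spans the TSS, was at place 13428 (43.2%), and its *Junb*-deficient counterpart was at place 25181 (86.7%). No BATF peak was listed there. The peak was thus 43.5 points lower in the *Junb*-deficient list, which 3.54% of all paired IRF4 peaks equalled or exceeded. JunB and IRF4 without BATF described 3 of the 8 JunB peaks of the cluster, namely the promoter, the site 54.5 kb upstream, and a site 22.2 kb upstream whose JunB peak was low in its list (74.9%).

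Other sites upstream of *Gzmb* did not share this order. At the site 29.3 kb upstream, where JunB (10.5%), BATF (30.9%), and IRF4 overlapped, IRF4 stood at 12.6% in *Junb*-sufficient and 9.41% in *Junb*-deficient cells, the highest place of any *Junb*-deficient IRF4 peak in the 4 loci. At the site 22.2 kb upstream, IRF4 stood at 23.6% and 15.5%. Neither JunB peak held an AICE match, and the JunB peak 22.2 kb upstream held an AP-1 match. Both IRF4 peaks were higher in the *Junb*-deficient list, as was the peak 19.5 kb upstream, off JunB, at 33.2% and 14.2%.

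The remaining IRF4 peaks upstream of *Gzmb* lay off JunB and were lower in the *Junb*-deficient list. The largest distance was at the BATF and IRF4 site 94.7 kb upstream, at place 7783 of the *Junb*-sufficient and 21846 of the *Junb*-deficient list. It was 50.2 points lower, which 2.16% of all pairs equalled or exceeded, and 5.84% of pairs that started in the same 10% of the *Junb*-sufficient list. No AP-1 and no AICE match was found there. The peak 34.8 kb upstream, with an AICE match, was at 25.3% against 58.8%. The peak 48.1 kb upstream, with an AP-1 match, was at 43.9% against 69.0%. All of the IRF4 peaks more than 29.3 kb upstream of *Gzmb* were thus lower or missing in the *Junb*-deficient list, while nearer peaks went either way, with the peak 14.1 kb upstream at 33.2% against 48.3%. A JunB peak 80.3 kb upstream (54.0%) overlapped no other peak. All 10 *Junb*-deficient IRF4 peaks of the cluster overlapped a *Junb*-sufficient one, whereas peaks at the same places in the list lacked a counterpart at a rate that would give 2.92 such peaks; the 95% interval of 0 of 10 reaches 30.8%, which includes the background of 30.3%.

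*Gzmc* (chr14:56850238-56853493) and *Gzmf* (chr14:56824103-56830244) lie downstream of *Gzmb* on the same strand and had few peaks of their own. The single peak nearest to *Gzmc* was a BATF peak 4.71 kb upstream (55.5%) that overlapped no JunB or IRF4 peak. In an intron of *Gzmf*, 5.55 kb from its TSS, JunB (11.4%), BATF (63.2%), and IRF4 overlapped, with IRF4 at 16.1% in *Junb*-sufficient and 24.7% in *Junb*-deficient cells. All other peaks within 100 kb of these 2 genes were those described for *Gzmb*. Neither promoter had a peak of any library, and in the windows shown both carried the CRE letters TGACGTCA and no AP-1 match. The *Gzmb* window holds agacgtca, which differs from the CRE letters at the first base only and was not counted by the exact search. Of 45975 protein-coding promoters in mm9, 1.87% held a CRE and 3.71% an AP-1 match within 250 bp before the TSS, a longer stretch than the windows shown. CRE was searched after these sequences were seen, so that these shares are a description and no test. The bases around the CRE letters are nearly the same at *Gzmc* and *Gzmf*, so that the 2 matches are not independent.

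**Figure D2:**
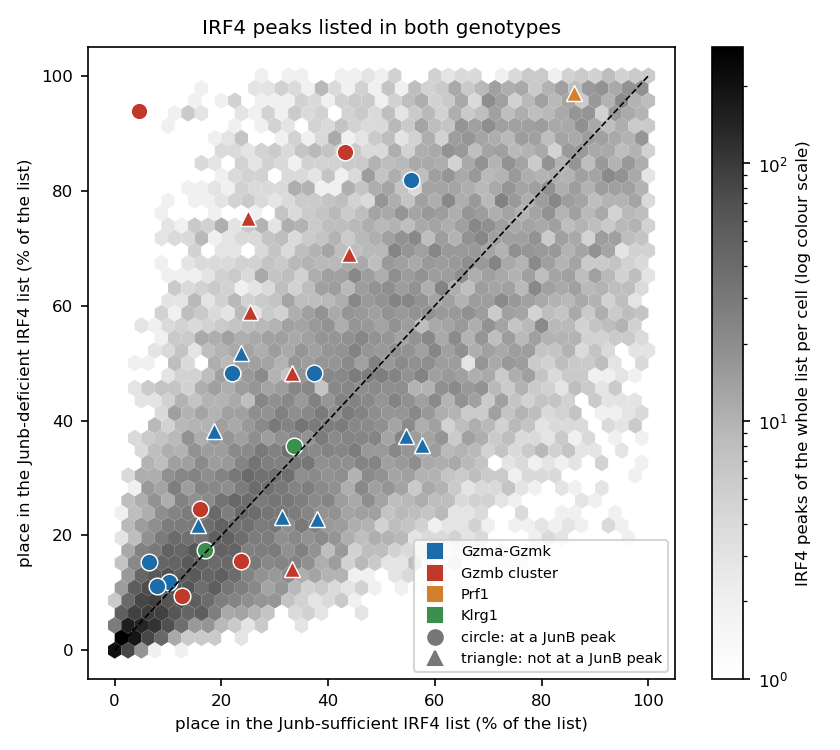
Place in the *Junb*-sufficient (x axis) and the *Junb*-deficient (y axis) IRF4 list, in percent of each list with the top at 0, for IRF4 peaks with an overlapping peak in the other genotype. Grey hexagons count all pairs on a logarithmic shade, coloured symbols are the 26 pairs of the 4 loci (circles at JunB peaks, triangles off them), the dashed line marks equal places, and the red circle at the upper left is the site 62.9 kb upstream of *Gzmb* (4.64% and 93.8%).

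*Gzma* (chr13:113884033-113891187) and *Gzmk* (chr13:113961816-114016116), both on the minus strand, had the most peaks, with 11 JunB, 8 BATF, 17 *Junb*-sufficient IRF4, and 16 *Junb*-deficient IRF4 peaks between them. Of the JunB peaks, 5 overlapped both BATF and IRF4. *Gzma* alone had 13 IRF4 peaks in each genotype, a number that 2.05% of 22238 protein-coding genes reached in *Junb*-sufficient and 1.71% in *Junb*-deficient cells, and 5 JunB peaks with BATF and IRF4, which 3.34% reached.

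At the sites with all 3 factors, IRF4 was present in both genotypes and always lower in the *Junb*-deficient list, by distances from 1.60 to 26.4 points. The highest JunB peak, 66.7 kb downstream of the *Gzma* TSS (chr13:113824107-113824257), was at place 1770 (5.97%), with BATF at 21.3% and IRF4 at 8.01% against 11.3%. The intronic site of *Gzmk* 2.72 kb upstream of its nearest TSS, whose sequence above has an AP-1 match 5 bp from the centre, had JunB at 10.9%, BATF at 19.9%, and IRF4 at 6.40% against 15.4%. These strong sites thus kept a strong IRF4 peak. The site 10.5 kb downstream of a *Gzmk* TSS (chr13:113960545-113960695) had JunB at 10.5%, BATF at 37.5%, and IRF4 at 21.9% against 48.3%. At the weaker site in an intron of *Cdc20b*, 24.3 kb downstream of *Gzma*, JunB was at 26.4%, BATF at 59.0%, and IRF4 at 55.5% against 81.9%, with no AP-1 and no AICE match. The last site, 87.1 kb downstream of *Gzma*, had JunB at 45.3%, BATF at 29.4%, and IRF4 at 10.3% against 11.9%, and a neighbouring JunB peak 307 bp away (57.9%) overlapped BATF but not *Junb*-sufficient IRF4.

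The 4 *Junb*-sufficient IRF4 peaks of this locus without a counterpart all lay off JunB. The nearest to a TSS, 3.98 kb upstream of *Gzma* (65.0%), overlapped a BATF peak (48.9%) and held the AICE match shown above, while a *Junb*-deficient peak without counterpart was listed 1.17 kb upstream of *Gzma* (49.4%), centred 2.82 kb from it. The other 3 were 34.4 kb upstream of *Gzma* (42.4%), in an intron of *Gzmk* 22.4 kb upstream of its nearest TSS, with an AP-1 match (35.7%), and 45.5 kb upstream of *Gzmk* (84.6%). The 2 further *Junb*-deficient peaks without counterpart were at the bottom of the list (99.7% and 91.5%). Within *Gzma*, 6.39 kb from its TSS, BATF (66.1%) and IRF4 overlapped without JunB, and IRF4 was at 31.3% in *Junb*-sufficient and 23.2% in *Junb*-deficient cells. An intronic site that *Gzmk* shares with *Esm1* had JunB (28.4%) and IRF4 without BATF, with IRF4 at 37.4% against 48.3%. The other 4 JunB peaks overlapped no peak of another library and stood at 41.1 to 94.3%.

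The 6 remaining IRF4 pairs of *Gzma* and *Gzmk* lay off JunB and BATF and went in both directions. Higher in the *Junb*-deficient list were the peaks 76.6 kb downstream of *Gzma* (38.0% against 22.8%), 19.6 kb upstream of it (54.5% against 37.3%), and in an intron of *Gzmk* 17.2 kb upstream of its nearest TSS (57.7% against 35.8%). Lower were the peaks 69.2 kb downstream of *Gzma* (15.6% against 21.8%), 12.6 kb downstream of *Gzmk* (23.6% against 51.8%), and 17.9 kb upstream of *Gzmk* (18.6% against 38.1%). The last held an AICE match, as did the only BATF peak of the locus without JunB or IRF4, 13.6 kb upstream of *Gzmk* (41.9%). The IRF4 peak 12.6 kb downstream of *Gzmk* held no AP-1 and no AICE match.

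*Prf1* (chr10:60760584-60767011, plus strand) had no JunB and no BATF peak within 100 kb. JunB peaks were listed within 100 kb of 82.3% of protein-coding genes and of the 6 other genes here. Its *Junb*-sufficient IRF4 peak, 16.4 kb upstream (chr10:60743839-60744451), was low in the list (86.1%), as was its *Junb*-deficient counterpart (97.1%). Of the 2 *Junb*-deficient peaks without counterpart, the peak in an intron of *Prf1*, 3.43 kb from the TSS, was also near the bottom (95.4%), and the peak 53.5 kb downstream, in an intron of *X99384*, was at 60.2%. No peak of *Prf1* in any library was thus in the first 50% of its list.

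**Figure D3:**
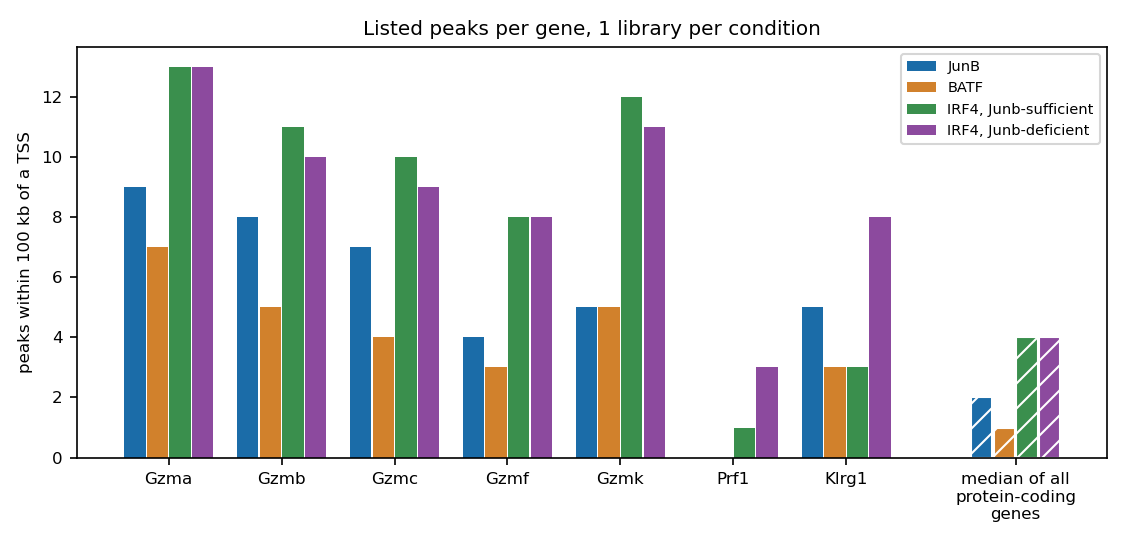
Number of listed peaks within 100 kb of any TSS of each gene (y axis) in the 4 libraries, with the median over all protein-coding genes hatched at the right. *Prf1* has 0 JunB and 0 BATF peaks, and *Klrg1* has 3 *Junb*-sufficient and 8 *Junb*-deficient IRF4 peaks; genes of the same locus share peaks.

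*Klrg1* (chr6:122220614-122232900, minus strand) had more IRF4 peaks in *Junb*-deficient than in *Junb*-sufficient cells, whereas the *Gzmb* cluster had 10 and 11. The difference between these loci holds for the sample titles, which the study's own list of its data shares, but not for the antibody field. If the antibody field were right, the *Junb*-sufficient counts would be 3 at *Klrg1* and 5 at the *Gzmb* cluster, and both loci would have 5 more IRF4 peaks in *Junb*-deficient cells. The *Junb*-sufficient IRF4 list would then hold 13570 peaks in place of 31093. By the titles, *Klrg1* had 3 IRF4 peaks in the *Junb*-sufficient list and 8 in the *Junb*-deficient list, and 6 of these 8 had no *Junb*-sufficient counterpart (95% interval 34.9 to 96.8%). Peaks at the same places in the list lacked a counterpart at a rate that would give 2.00 such peaks. A surplus of 5 or more *Junb*-deficient IRF4 peaks was found at 0.423% of protein-coding genes, and 6 or more peaks without counterpart at 0.782%. Without replicates, neither surplus, nor the difference from the *Gzmb* cluster, could be set against the spread between libraries.

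Of the 6 peaks, 4 were within the first 50% of the *Junb*-deficient list. The highest, 20.7 kb upstream of *Klrg1* (chr6:122253262-122253866, 22.0%), overlapped a BATF peak low in its list (82.4%). The peaks in an intron, 8.16 kb from the TSS (chr6:122224443-122225047), and at the 3′ end of the gene (chr6:122220024-122220628) were adjacent in the list, both at 24.9%. The latter was separated by 388 bp from a *Junb*-sufficient IRF4 peak low in its list (91.0%), which itself had no counterpart, so that these 2 peaks missed each other by a short distance. The peak at *M6pr*, 25.8 kb upstream (41.9%), overlapped a JunB peak (47.7%) that had no *Junb*-sufficient IRF4 peak. The last 2, 0.819 kb upstream of the *Klrg1* TSS (83.3%) and 20.1 kb downstream of it (74.4%), were weaker.

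The 2 *Klrg1* sites with all 3 factors were nearly the same in both IRF4 lists. At the site 9.12 kb upstream (chr6:122241943-122242093), whose sequence above has 2 AP-1 matches, JunB stood at 29.6%, BATF at 61.0%, and IRF4 at 17.0% against 17.4%. At the site 70.9 kb upstream (chr6:122303725-122303875), JunB stood at 31.7%, BATF at 87.6%, and IRF4 at 33.5% against 35.5%. The difference of 0.407 points at the first was the smallest of the 26 pairs, and that at the second was 2.01 points. The remaining JunB peaks, 20.2 kb upstream (61.5%) and in another exonic part of *M6pr* 34.6 kb upstream (88.9%), overlapped no other peak.

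Over the 4 loci, 10 of the 24 JunB peaks carried BATF and IRF4 together (41.7%, 22.1 to 63.4%), against 33.5% of all JunB peaks within 100 kb of a protein-coding TSS. A further 4 overlapped IRF4 without BATF, 1 overlapped BATF without IRF4, and 9 overlapped neither. The 10 peaks stood at 5.97 to 45.3% of the JunB list with a median of 11.2%, and the 14 other JunB peaks at 18.7 to 94.3% with a median of 56.0%, so that the groups overlapped in place. Over all JunB peaks the medians were 20.5% and 60.6%. Of the 10, 5 held an AP-1 match, against 42.0% of all such JunB peaks, and 1 an AICE match, against 7.51%. The 16 BATF peaks overlapped IRF4 in 13 cases and JunB in 10, and 3 overlapped neither.

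Of the 32 *Junb*-sufficient IRF4 peaks, 6 had no *Junb*-deficient counterpart (18.8%, 7.21 to 36.4%), against a background of 34.6%. Among the 14 at JunB peaks, 1 had none (7.14%, 0.181 to 33.9%), against 23.7%. Both shares were below the background, and both intervals include it. In the first 50% of each list they were 33.3% (8 of 24) and 18.2% (2 of 11). There the *Junb*-deficient list was cut as well, so that a counterpart lower in that list was not counted. Against the whole *Junb*-deficient list, 2 of these 24 had no counterpart. No background was computed at this cut. Because loss followed the place in the list, the count over the whole lists was also set against the loss rates at the same places, which would give 8.22 peaks in place of 6. Of the 37 *Junb*-deficient IRF4 peaks, 11 had no *Junb*-sufficient counterpart (29.7%, 15.9 to 47.0%), against 30.3%, and the rates at the same places would give 10.7. With the BATF and IRF4 libraries exchanged, as the antibody field has them, 24 of the 37 had none (64.9%), the exchanged list holding 13570 peaks in place of 31093. By the titles, the shares without a *Junb*-sufficient counterpart were 0 of 10 at the *Gzmb* cluster (0 to 30.8%) and 6 of 8 at *Klrg1* (34.9 to 96.8%), and the first interval includes the background. With the libraries exchanged they were 6 of 10 and 5 of 8, so that the contrast between these loci ended. The *Klrg1* interval by the titles started at 34.9%, not far above the background of 30.3%. It takes neighbouring peaks of 1 locus as independent, and 1 of the 6 peaks missed a *Junb*-sufficient peak by 388 bp. Without *Klrg1*, the share over the other loci was 17.2% (5 of 29). The plot of shares with their intervals gives these values.

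**Figure D4:**
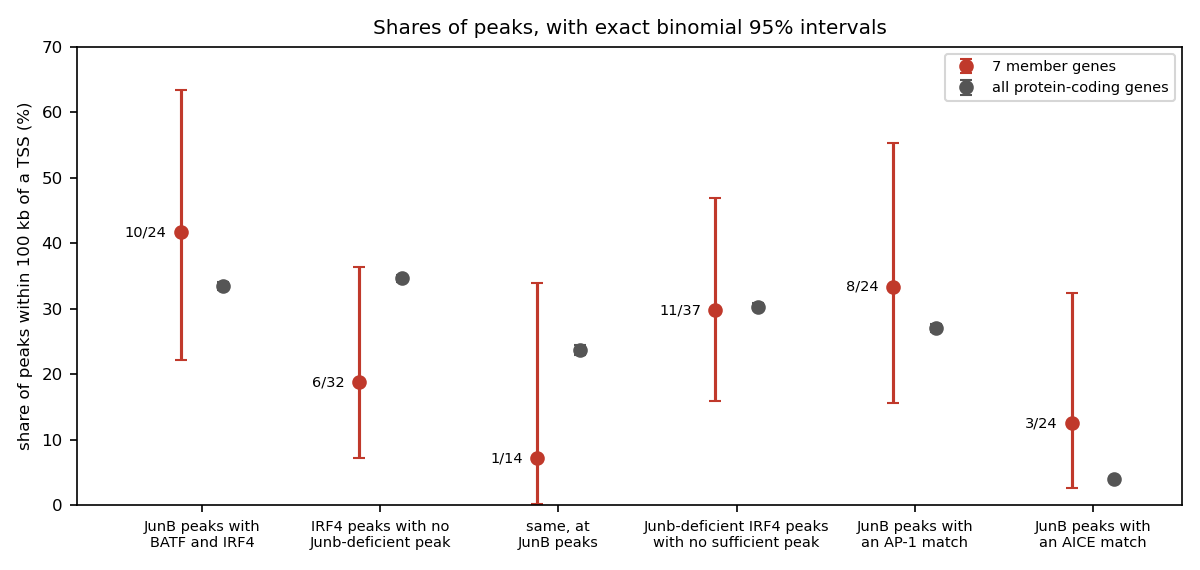
Shares of peaks (y axis, percent) at the 7 genes (red, with counts) and within 100 kb of any protein-coding TSS (grey), with exact binomial 95% intervals that cover counting error only. The interval of the share of IRF4 peaks with no *Junb*-deficient peak reaches 36.4%, above its background of 34.6%, and the interval of each of the 6 shares includes its background.

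IRF4 peaks present in both genotypes were more often lower than higher in the *Junb*-deficient list. Of the 26 pairs, 19 were lower and 7 higher, with a median of 8.79 points lower, whereas over all 20218 pairs 51.4% were lower and the median was 0.298 points. The 26 pairs started nearer the top of the *Junb*-sufficient list, at a median of 25.2% against 38.2% over all pairs. Peaks nearer the top have more room to be listed lower, and neither this comparison nor those that follow were matched by place. At JunB peaks 11 of 13 were lower with a median of 8.60 points, against 61.1% and 2.20 points over all pairs at JunB peaks. Off JunB peaks 8 of 13 were lower with a median of 11.0 points, whereas over all pairs off JunB 42.7% were lower, so that lower places were found both at and off JunB peaks. By locus the median was 20.1 points over 10 pairs at the *Gzmb* cluster, 6.20 over 13 at *Gzma*-*Gzmk*, 1.21 over 2 at *Klrg1*, and 11.0 for the 1 pair of *Prf1*. All 10 IRF4 peaks with an AP-1 match within 100 bp of their centre were missing or lower, as were all 5 with an AICE match, among them 2 missing. Of the 10, the peak 9.13 kb upstream of *Klrg1* was lower by only 0.407 points. Its place was 5287 of 31093 in the *Junb*-sufficient and 5055 of 29033 in the *Junb*-deficient list, so that its direction rests on the lengths of the lists. The count for AP-1 also depends on the window, since the IRF4 peak 22.3 kb upstream of *Gzmb*, which was higher in the *Junb*-deficient list, covers a JunB peak with an AP-1 match but holds none within 100 bp of its own centre. Over all IRF4 peaks within 100 kb of a protein-coding TSS, 82.1% with an AP-1 match and 75.1% with an AICE match were missing or lower. The same held for 63.3% without an AP-1 match and for 67.9% without an AICE match. Among the IRF4 peaks here it held for 15 of 22 without an AP-1 match (68.2%) and for 20 of 27 without an AICE match (74.1%).

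By gene, 6 of the 7 had a JunB peak with BATF and IRF4 within 100 kb, against 51.5% of protein-coding genes. *Gzma* and *Gzmk* share such sites, as do *Gzmb*, *Gzmc*, and *Gzmf*, so that counts by gene are not of independent loci. IRF4 peaks at JunB without a *Junb*-deficient counterpart were found at *Gzmb* and *Gzmc*, which share the site 54.5 kb upstream of *Gzmb*, against 27.0% of genes, and *Junb*-deficient IRF4 peaks without counterpart at 4 of the 7 (*Gzma*, *Gzmk*, *Prf1*, and *Klrg1*), against 62.6%. Of 26 other genes of granule proteases, their activators and inhibitors, granule release, and the natural killer receptor family, 21 had a JunB peak with BATF and IRF4 (80.8%); the exceptions were *Gzmm*, *Ctsg*, *Ctsw*, *Unc13d*, and *Stxbp2*. Of these 26, 9 had an IRF4 peak at JunB without counterpart and 19 a *Junb*-deficient IRF4 peak without counterpart. Several of these genes share windows with each other or with the *Gzmb* cluster, so that the counts are not of independent loci.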

How the data were processed

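Reads were aligned by the authors to mm9 with Bowtie2, and peaks were called for each library with HOMER, for which the processing notes name version 4.8. The deposited lists hold positions and a score that the authors left at 1 for every peak. Headers give a false discovery rate of 0.001 and a 4-fold excess over the surrounding 10 kb. Peaks are reported here as shared when they overlapped by 1 bp or more. Genes and TSSs were taken from GENCODE M1 and bases from NCBIM37, with 0 of 103355 peaks beyond a chromosome end. Shares and intervals were computed in Python 3.11.15 with SciPy 1.17.1, after overlap and motif searches were tested on simulated data. The members and lists were chosen with earlier results of these data known. Peaks were named by rule: the highest and the nearest to a TSS in each locus and library, IRF4 peaks at JunB without counterpart, and JunB peaks with BATF and IRF4; others were named after their values were seen. No per-sample columns were left unused, and CRE was searched after promoter sequences were seen. Alternatives were the window, overlap, list depth, motif width, exchanged antibodies, and leaving out each locus.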

Additional observations from a re-analysis of the deposited data

How the results depend on the processing

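Across 82 alternative values, 72 stayed within the interval or range of the main value and 10 moved. The share of IRF4 peaks at JunB without a *Junb*-deficient counterpart (7.14%) was 0 within 50 kb (0 of 9), 0 without the *Gzmb* cluster (0 of 8), and 0 with the BATF and IRF4 libraries exchanged (0 of 10), since it rests on 1 peak. The share of JunB peaks with an AICE match (12.5%) was 0 within 50 kb (0 of 15) and 0 without the *Gzmb* cluster (0 of 16). With the libraries exchanged, the share of *Junb*-deficient IRF4 peaks without counterpart was 64.9% (24 of 37). The share of *Junb*-sufficient IRF4 peaks without counterpart (18.8%) ranged from 13.3 to 33.3%. The highest was in the first 50% of each list, where counterparts lower in the *Junb*-deficient list were not counted. That of *Junb*-deficient IRF4 peaks (29.7%) was 17.2% without *Klrg1*. The peak counts were 15 for JunB within 50 kb, 49 for *Junb*-sufficient IRF4 within 200 kb, and 8 for BATF and 23 for *Junb*-deficient IRF4 in the first 50% of each list. The share of JunB peaks with BATF and IRF4 ranged from 37.5 to 50%. No paired analysis was possible because each condition had 1 library. The files give places in a list but no tags per peak, so that a lower place may be a smaller or larger change in binding.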
